A study of Arabidopsis thaliana with 6 samples.

Results

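Of the 454 *Arabidopsis thaliana* genes in the deposited expression table, 4 genes for proteins of mitochondria or plastids, picked by locus from among several such genes, are described here: *PUMP4* (AT4G24570), *SAMC1* (AT4G39460), *COX19-2* (AT1G69750) and *BCA6* (AT1G58180). They were chosen by their cRPKM values against Col-0 in these same 6 libraries, and each was far from the Col-0 level in at least 1 mutant, so their changes against Col-0 are given as a description without a test. Compared with Col-0, *PUMP4* stood 6.39-fold higher in the pair labelled *sap18* and 4.08-fold higher in *sr45*. *SAMC1*, *COX19-2* and *BCA6* were lower in both, and *COX19-2* was the furthest from Col-0 of these 3, at 0.173 and 0.110 of the Col-0 level.

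mRNA was measured in whole seedlings of the wild-type Col-0 (no mutation named), of *sap18* and of *sr45*, with 2 libraries per genotype. All seeds were cold-treated at 4°C for 48 h, then raised for 11 days on MS plates in a chamber at 22°C under a day of 16 h light and 8 h dark, and none was given another treatment. The mutants are T-DNA insertion lines, named *sap18* (SALK_083076) and *sr45-1* (SALK_004132) in the methods, and each is 1 line. SR45 and SAP18 belong to the ASAP complex, which takes part in pre-mRNA splicing, and the comparison asks which genes depend on either. Whether libraries of a genotype came from separate plantings is not given in the sources used here, so errors and p-values measure only the spread between libraries, which may be technical.

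*SR45* was 23.1 and 19.4 cRPKM in Col-0, 20.9 and 23.1 in the libraries labelled *sap18*, and 5.39 and 4.98 in *sr45*. *SAP18* was 76.6 and 83.7 cRPKM in Col-0, 75.6 and 94.3 in *sr45*, and 936 and 900.2 in the libraries labelled *sap18*. The level of *SAP18* in this pair thus stood far above that in Col-0 and in *sr45*, and shows no loss of the transcript. Whether this RNA is functional cannot be read from these values. The titles and genotype labels of the same pair name *sap18 sr45* where the descriptions name *sap18*. Yet *SR45* was near its Col-0 level in this pair, without the lower level seen in *sr45*, so its RNA does not bear out the title. The pair is called the libraries labelled *sap18* throughout, and the doubt over its genotype applies to each direction given for it. cRPKM is a form of RPKM, that is reads scaled to the library size and to the mappable length of the gene. As the table holds no reads, the depth behind a value is unknown.

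Mitochondrial carriers are inner-membrane proteins built from repeated modules of a shared fold, and each moves a few metabolites across the membrane. *PUMP4*, named *DIC2* by RefSeq, encodes a dicarboxylate carrier, which exchanges acids such as malate for other anions. SAMC1 has the same fold, but RefSeq describes it as the plastid importer of S-adenosylmethionine, the methyl donor of most methylation reactions. COX19 is known in yeast as a small protein of the mitochondrial intermembrane space that helps to assemble cytochrome c oxidase. BCA6 is a beta carbonic anhydrase, an enzyme that converts CO2 and bicarbonate into each other, and is assigned to mitochondria.

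Matches to the family signature are shown in the DNA of *PUMP4* and *SAMC1* because these carriers lay on opposite sides of Col-0. The coding sequence was searched for codons of proline, any residue, aspartate or glutamate, any pair of residues, and lysine or arginine. The capitals mark the codons of proline, of aspartate or glutamate, and of lysine or arginine. Each sequence is from the coding strand of RefSeq TAIR10.1, on chromosome 4.
*PUMP4*, chr4:12686609-12686626, plus strand: CCTctcGATctaatcAAG
*PUMP4*, chr4:12687281-12687298, plus strand: CCGgtgGATgtgataAAG
*SAMC1*, chr4:18358343-18358360, minus strand: CCCtttGATttcttcCGC
*SAMC1*, chr4:18358068-18358085, minus strand: CCAattGATactattAAG
*SAMC1*, chr4:18356501-18356518, minus strand: CCGcttGATgttattAAG
*SAMC1* has 4 matches in all, of which 1 is split by an intron and is not printed. Those printed start at codons 47, 74 and 246, and the split one at codon 155. The matches at codons 47 and 74 lie much closer together than the others. Whether each match falls in one of the repeated modules was not tested. Of the 427 protein-coding genes of the table with an annotation, 14 (3.28%) have at least 2 matches. Whether each of these encodes a carrier was not checked, so no gene is named a carrier here by its matches alone. Neither *COX19-2* nor *BCA6* has a match. The *COX19-2* reading frame instead holds 2 pairs of cysteine codons with 9 residues between, at codons 31 and 41 and at codons 52 and 62. Twin pairs of this spacing are typical of proteins imported into the intermembrane space. *BCA6* has the cysteine-aspartate-arginine motif at codon 114 and the histidine-cysteine motif at codon 173 that hold the zinc ion of beta carbonic anhydrases.

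*PUMP4* was 1.45 and 1.59 cRPKM in Col-0 replicates 1 and 2, 10.8 and 8.63 in the libraries labelled *sap18*, and 6.84 and 5.57 in *sr45*. It was lowest in Col-0 and highest in the libraries labelled *sap18*, and no library of one genotype overlapped another. The means were 1.52 ± 0.0946, 9.71 ± 1.53 and 6.20 ± 0.894 cRPKM (SD, n = 2 libraries each). On the scale of log2(cRPKM + 1), used for every log2 value here, the change against Col-0 was 2.08 for the pair labelled *sap18* and 1.51 in *sr45*, each with a standard error of 0.17 from a limma fit of all 454 genes. The pseudocount of 1 understates the change of a gene as low as this one: with 0.1 instead, the values were 2.59 and 1.95. In whole seedlings, fewer cells of a type and less RNA per cell cannot be told apart, for this and for each result that follows.

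*SAMC1* was 89.5 and 75.3 cRPKM in Col-0, 29.2 and 30.4 in the libraries labelled *sap18*, and 26.9 and 28.6 in *sr45*. Both mutants lay close together, far below either Col-0 library. The means were 82.4 ± 10.1, 29.8 ± 0.847 and 27.7 ± 1.18 cRPKM (SD, n = 2), or 2.76-fold and 2.97-fold lower than in Col-0. The log2 changes were -1.43 and -1.53 (standard error 0.16 each).

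*COX19-2*, the gene of the oxidase assembly factor, was 36.6 and 28.4 cRPKM in Col-0, 5.18 and 6.07 in the libraries labelled *sap18*, and 4.20 and 2.98 in *sr45*. The genotypes again did not overlap, and the order was Col-0, libraries labelled *sap18*, *sr45*. The means of 32.5 ± 5.74, 5.63 ± 0.631 and 3.59 ± 0.864 cRPKM (SD, n = 2) give levels 5.77-fold and 9.06-fold lower than in Col-0. The log2 changes were -2.33 and -2.87 (standard error 0.20 each), which rank 3 and 5 among the 454 genes from the lowest change up. This value is uncertain, because the gene has a near copy. The coding sequence of *COX19-1* (AT1G66590) is the same at 293 of 297 aligned bases (98.7%), and of the words of 50 bases in the longest *COX19-2* transcript 48.0% also stand elsewhere in the genome, at AT1G66590, at the neighbouring AT1G66580 and between genes. For *PUMP4*, *SAMC1* and *BCA6* that share was 0. The cRPKM divides by mappable positions, but how reads common to both copies were handled is not given in the sources used here, and *COX19-1* was not analysed here.

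*BCA6* was 71.9 and 103 cRPKM in Col-0, 40.0 and 45.9 in the libraries labelled *sap18*, and 23.4 and 28.4 in *sr45*. Its Col-0 libraries differed most among the 4 genes, and still no genotype overlapped another. The means were 87.5 ± 22.1, 43.0 ± 4.18 and 25.9 ± 3.50 cRPKM (SD, n = 2), or 2.04-fold and 3.38-fold lower than in Col-0. The log2 changes were -0.99 and -1.70 (standard error 0.21 each).

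**Figure D1:**
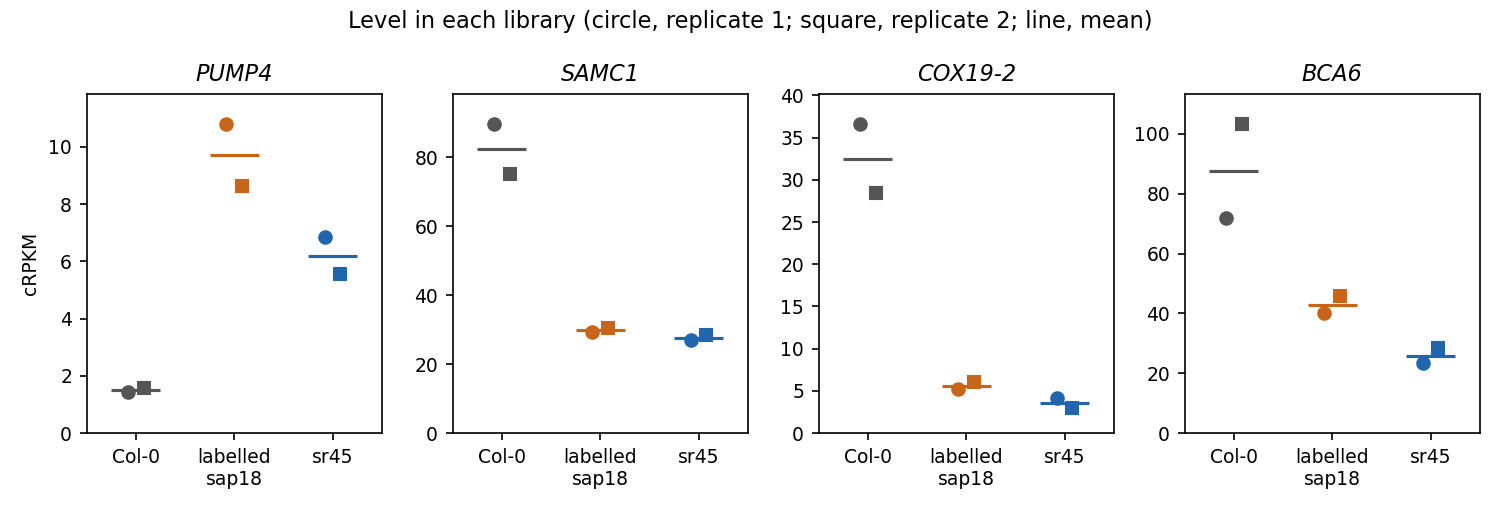
Level of *PUMP4*, *SAMC1*, *COX19-2* and *BCA6* in cRPKM (vertical axis, from 0, on a scale of its own in each panel) in each of the 6 libraries, by genotype. Circles are replicate 1, squares replicate 2 and lines the mean. *PUMP4* goes from 1.52 in Col-0 to 9.71 and 6.20, and the other 3 genes are lower in both mutants.

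The fold criterion follows the wording of the study's methods, without their minimum of reads. A gene met it when each of the 4 mutant to Col-0 library ratios was 2 or more (or, for lower genes, its inverse was). It also required the mutant pair or the Col-0 pair to exceed 5 cRPKM throughout. *PUMP4* met it as higher in both mutants, with library ratios of 5.44 to 7.43 in the libraries labelled *sap18* and 3.51 to 4.71 in *sr45*. Of all 454 genes, 9.25% met it as higher in the pair labelled *sap18* and 11.5% in *sr45*. *SAMC1* and *COX19-2* met it as lower in both, where 10.6% and 30.2% of all genes did. *BCA6* met it in *sr45* but not in the libraries labelled *sap18*, where its ratios ran from 0.388 to 0.638. It did meet it there without Col-0 replicate 1, when all 4 genes did. *SAMC1* lost its call under the *sap18* label when each mutant was centred on genes that only the other mutant called. With each mutant centred on the genes called in neither, *SAMC1* and *BCA6* lost theirs in *sr45*, where the log2 changes became -0.64 and -0.81, and *PUMP4* and *COX19-2* met the criterion in both mutants under either centring. Both centrings rest on genes of a table selected for change, so neither has a set known to be unchanged. The 4 genes were chosen for being changed, so the counts describe the choice. In these terms *PUMP4* is 1 of the 9 genes (1.98%) higher in both, and *SAMC1* and *COX19-2* are 2 of the 35 (7.71%) lower in both. The comparisons share the Col-0 libraries, so likeness between them is partly built in.

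The difference between the mutants was not used to choose the genes, and it was tested with limma over all 454 genes. It shares the mutant libraries with the changes against Col-0 that were used, so its p-values are not independent of the choice. The mean level of *PUMP4* under the *sap18* label was 1.56 times that in *sr45*, with a log2 difference of 0.57 (standard error 0.17, 95% interval 0.17 to 0.97, adjusted p = 0.023 from limma). *COX19-2* was 1.57-fold higher in the same libraries, with 0.54 (standard error 0.20, interval 0.079 to 1.003, adjusted p = 0.047). *BCA6* was 1.66-fold higher, with 0.71 (standard error 0.21, interval 0.23 to 1.20, adjusted p = 0.021). *SAMC1* did not pass, at 0.10 (standard error 0.16, interval -0.26 to 0.46, adjusted p = 0.58 from limma). This interval holds ratios of 0.835 to 1.38, so it neither shows a difference nor that the levels are the same.
Thus 3 of the 4 genes differed between the mutants, where 58.4% of all 454 genes did, made up of 44.3% with the higher level under the *sap18* label and 14.1% with the higher level in *sr45*. The share among these genes is near this background. The median log2 difference of all genes was 0.40, and the median of its size was 0.60. Without replicate 1 of the pair labelled *sap18* none of the 4 genes passed, without its replicate 2 only *PUMP4* did, and without *sr45* replicate 2 only *BCA6* did. When each mutant was centred on the genes that met the fold criterion in neither, which moved *sr45* up by more than the libraries labelled *sap18* (shifts of -0.89 and -0.23 removed), the log2 difference was -0.088 for *PUMP4*, -0.12 for *COX19-2*, -0.56 for *SAMC1* and 0.055 for *BCA6*. Only *SAMC1* then passed, as higher in *sr45* (adjusted p = 0.021 from limma). The 219 genes used for this centring belong to a table selected for change, and their median lay below Col-0 in both mutants. The deposited values had already been quantile normalized across libraries before this centring. How much of the removed shift is any scaling left after that, and how much is change, was not tested.

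**Figure D2:**
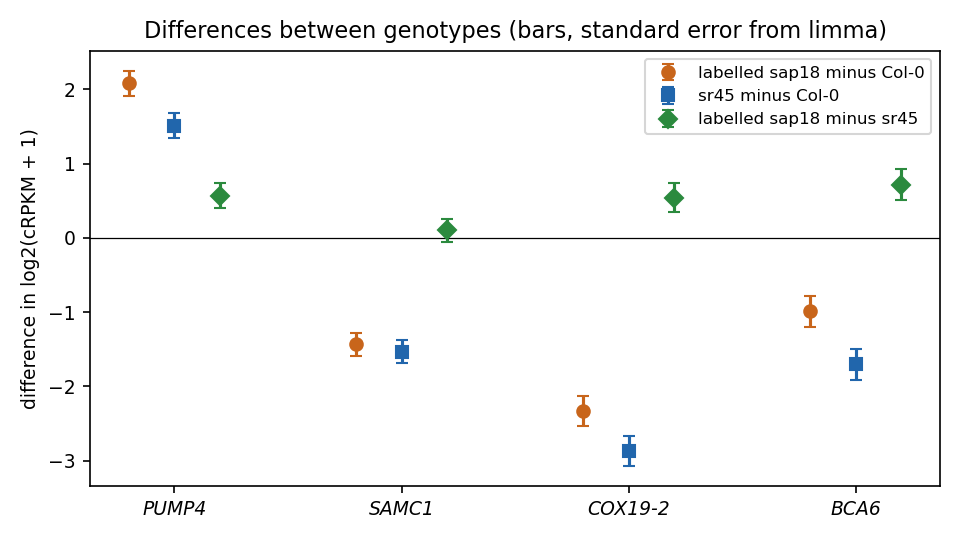
Differences in log2(cRPKM + 1), on the vertical axis, for each gene: libraries labelled *sap18* minus Col-0 (circles), *sr45* minus Col-0 (squares) and libraries labelled *sap18* minus *sr45* (diamonds), with bars for the limma standard error. All 4 diamonds lie above 0, from 0.10 for *SAMC1* to 0.71 for *BCA6*.

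The 4 genes differ in structure, a property that the choice did not use. In TAIR10.1, *PUMP4* spans 12686459 to 12687650 of chromosome 4 (plus strand) and has 1 exon. *SAMC1* lies on chromosome 4 from 18355783 to 18359000 on the minus strand, with 13 exons in each of its 3 annotated transcripts. *COX19-2* lies on chromosome 1 from 26235071 to 26238542 on the plus strand, with 4 to 6 exons in 5 transcripts. *BCA6* lies on chromosome 1 from 21537577 to 21540038 on the minus strand, with 8 to 11 exons in 7 transcripts. None overlaps another annotated gene. The gene without introns was higher in both mutants, and the 3 with introns were lower. As these 4 genes were chosen for their changes, they cannot show whether exon number goes with direction.
Over the table, the genes called lower had more exons by median than those called higher. In *sr45* the 137 genes that met the fold criterion as lower had a median of 7 exons in the longest transcript, and 9 of them (6.57%) had a single exon. The 52 higher genes had a median of 2, and 22 of them (42.3%) had a single exon. In the libraries labelled *sap18* the medians were 5.5 for the 48 lower genes and 1 for the 41 of 42 higher genes with an annotation. Over the 450 annotated genes of the table the median was 4, and 96 of them (21.3%) had a single exon. With the mutants centred on genes called in neither, the medians were 6 for the 19 lower and 2 for the 128 higher genes in *sr45*, and 6 and 2 in the libraries labelled *sap18*. These are counts of annotated exons without a test, and splicing was not analysed here.

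**Figure D3:**
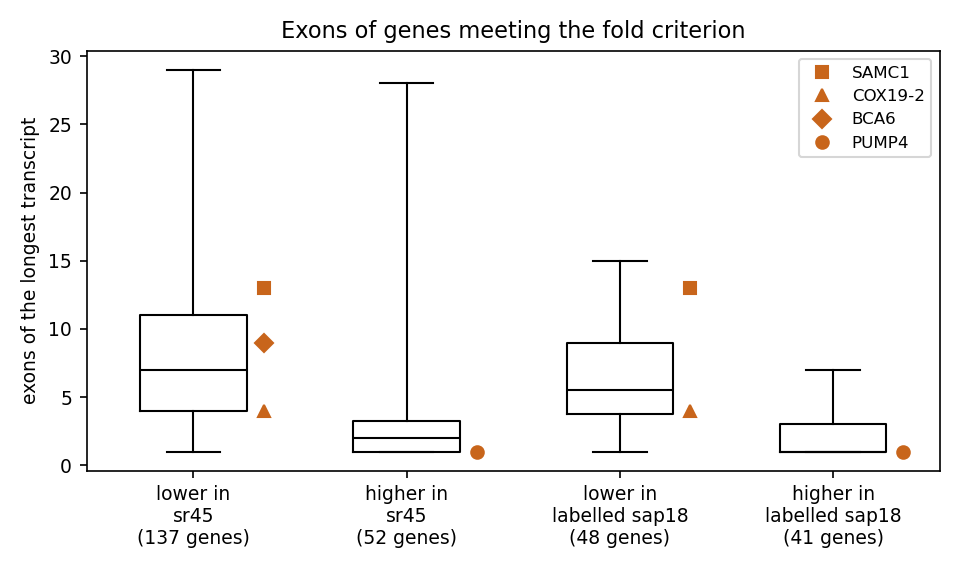
Exons of the longest RefSeq transcript (vertical axis) for genes that met the fold criterion as lower or higher in *sr45* or, on the right, in the pair labelled *sap18*. Boxes span the quartiles with the median as a line, whiskers reach the lowest and highest gene, and coloured marks are *PUMP4*, *SAMC1*, *COX19-2* and *BCA6* beside the group each is in. The medians are 7 and 2 in *sr45*, and *PUMP4* sits at 1 exon.

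Of 32 listed genes of the mitochondrial carrier family, 3 were in the table: *PUMP4*, *SAMC1* and *PUMP5*. *PUMP5* (AT2G22500, named *UCP5* by RefSeq and also known as *DIC1*) is another dicarboxylate carrier with 1 exon. Its coding sequence is the same as that of *PUMP4* at 71.5% of aligned bases, with no word of 50 bases in common. *PUMP5* was 2.91 and 1.94 cRPKM in Col-0, 7.98 and 5.37 in the libraries labelled *sap18*, and 7.24 and 5.91 in *sr45*. Like *PUMP4* it was higher in every mutant library than in either Col-0 library. The mutants overlapped, with a log2 difference of 0.0022 (standard error 0.22, adjusted p = 0.99 from limma), and only *sr45* met the fold criterion. Of these 3 carriers only *PUMP4* passed the test between the mutants, and whether its difference exceeds that of *PUMP5* was not tested.
*BCA6* was the 1 gene in the table of 6 listed beta carbonic anhydrases, and *COX19-2* the 1 of 9 listed factors of cytochrome c oxidase assembly. Of 10 listed genes that rise when mitochondria are impaired, only *NAC13*, a transcription factor gene of that response, was in the table. It was 3.74 and 3.20 cRPKM in Col-0, 4.02 and 4.89 in the libraries labelled *sap18*, and 7.09 and 7.47 in *sr45*. It was higher in *sr45* than in the libraries labelled *sap18*, the opposite order to *PUMP4*, with a log2 difference of -0.61 (standard error 0.16, adjusted p = 0.014 from limma). A gene that is not in the table has no value here, so the lists say nothing of their other members.

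The table also holds 3 genes encoded in the organelles themselves, and these differed several times over between libraries of 1 genotype. The mitochondrial *COX2*, a core subunit of cytochrome c oxidase, was 30.7 and 8.18 cRPKM in Col-0, 4.76 and 3.23 in the libraries labelled *sap18*, and 6.71 and 21.0 in *sr45*. The mitochondrial *NAD4L*, a complex I subunit gene, was 28.0 and 7.10, then 2.98 and 3.78, then 4.94 and 18.9. The plastid *PSBL*, a photosystem II gene, was 125 and 28.1, then 13.8 and 16.8, then 20.8 and 108.
Col-0 replicate 1 was thus 3.75 to 4.44 times replicate 2, and *sr45* replicate 2 was 3.13 to 5.20 times replicate 1. Without Col-0 replicate 1 and *sr45* replicate 2, *PUMP4* exceeded Col-0 6.12-fold in the pair labelled *sap18* and 4.31-fold in *sr45*. Without them *SAMC1* was 2.53-fold and 2.80-fold lower, *COX19-2* 5.05-fold and 6.78-fold lower, and *BCA6* 2.40-fold and 4.41-fold lower. Every gene kept its direction, and all 4 then met the fold criterion in both mutants, with fewer ratios required.

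**Figure D4:**
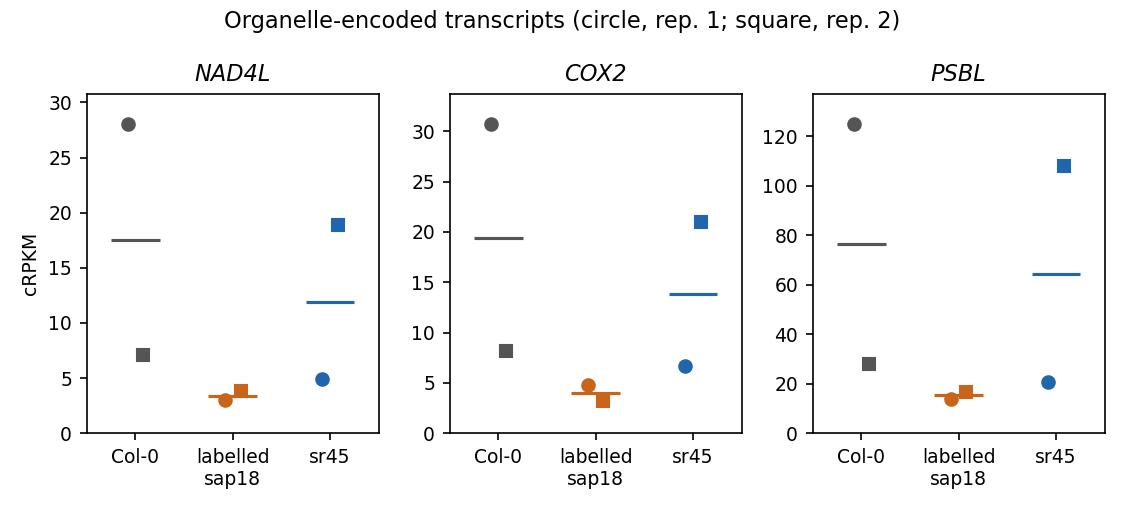
Level of the organelle-encoded *NAD4L*, *COX2* and *PSBL* in cRPKM (vertical axis, from 0, own scale per panel) in each library, by genotype, with circles for replicate 1, squares for replicate 2 and lines for the mean. Col-0 replicate 1 and *sr45* replicate 2 stand above the other libraries for each gene.

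Seedlings hold roots and green tissue, and markers of both differed between libraries. The 5 of 8 listed root markers in the table, *IRT1*, *PER22*, *PER30*, *PER32* and *PER33*, summed to 32.8 and 41.0 cRPKM in Col-0, 59.9 and 80.8 in the libraries labelled *sap18*, and 56.6 and 64.1 in *sr45*. None was at 0. Of the 4 green tissue markers 2 were in the table. *LHCB4.3* was 39.8 and 36.5, then 81.7 and 76.4, then 54.3 and 49.9 cRPKM, and *PSBL* is given above. The root sum was higher in every mutant library than in Col-0, with the mutants overlapping, but its members did not move together. *PER33* was 12.5 and 15.8 cRPKM in Col-0, 12.3 and 13.2 under the *sap18* label, and 28.6 and 34.3 in *sr45*, where it made up most of the higher sum. *IRT1* was 1.60 and 4.05, then 7.11 and 15.7, then 1.94 and 3.70 cRPKM. Means of *PER22*, *PER30* and *PER32* were 2.22 to 2.53 times Col-0 under the *sap18* label and 1.12 to 1.74 times in *sr45*. *LHCB4.3* and these 3 root genes had the order of means of *PUMP4*, while *IRT1*, *PER33* and *PSBL* did not. The *PSBL* means were 76.5 cRPKM in Col-0, 15.3 under the *sap18* label and 64.4 in *sr45*, the reverse order. The part of either tissue in the levels of the 4 genes was not tested.

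The genes most like each of the 4 were found by Pearson's r of log2(cRPKM + 1) over the 6 libraries, which fall into 3 pairs, so r mostly follows the steps between genotypes. For *PUMP4* these were AT1G35710 (r = 0.986), the ethylene response factor gene *ERF104* (0.983) and *ELIP1*, an early light-induced gene (0.982). *ERF104* stood at 5.53 times Col-0 in the pair labelled *sap18* and 2.86 times in *sr45*, the same order as *PUMP4*. For *SAMC1* they were AT5G39790 (0.997), the beta-glucosidase gene *BGLU8* (0.995) and AT2G16940 (0.994), and for *COX19-2* they were *NFYC10* (0.994), *BGLU8* (0.993) and AT2G16940 (0.993). For *BCA6* they were *TRFL8* (0.988), *TOM2B* (0.988) and AT4G30690 (0.986). *SAMC1* and *COX19-2* had r = 0.985 with each other, and *BCA6* had 0.883 and 0.909 with them. Many genes come this close: r was above 0.95 for 10 of the other 453 genes with *PUMP4*, 62 with *SAMC1*, 81 with *COX19-2* and 64 with *BCA6*. The ranking changed with the libraries used, since leaving out 1 library kept 0 to 6 of these 12 pairs and Spearman's rho kept 0.

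None of the 4 genes lay beside another. The nearest gene of the table to *PUMP4* was *AGL24*, a floral activator gene 12353 bases away, which was lower in both mutants (0.696 and 0.457 of Col-0) where *PUMP4* was higher. *CAD9* lay 62765 bases from *SAMC1* and was 1.20-fold and 2.14-fold higher. AT1G69526 lay 101758 bases from *COX19-2*, at 0.336 and 0.385 of Col-0. *GOLS2*, which encodes a galactinol synthase, lay 327942 bases from *BCA6* and was 1.49-fold and 3.15-fold higher.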

How the data were processed

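The authors quantified strand-specific mRNA libraries with vast-tools 2.5 on the araTha10 library (TAIR10, an extended Ensembl Plants 31 annotation) and deposited cRPKM, an RPKM corrected for mappable positions, after quantile normalization across libraries. The deposited table holds 454 genes that the authors had selected for change, so an adjusted p-value refers to this selection alone. Depth is unknown, and 0 columns were left without a sample. Samples were grouped by their descriptions.

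The 4 genes and all lists were chosen with earlier results of these data known. limma 3.58.1 in R 4.3.3 took log2(cRPKM + 1) of the 3 genotypes in 1 fit without a block, and used Benjamini-Hochberg adjustment at 0.05 over 454 genes. It was tested on simulated data. All 4 loci, and 450 of 454, were found in RefSeq TAIR10.1, from which structures and sequences were taken (Python 3.11.15, Biopython 1.88). Named genes were the 4, the targeted genes, list members in the table, the 3 most alike per gene and the nearest in the table. Alternatives covered pseudocount, level filter, scaling, variance model, samples fitted, replicate block, fold threshold and leaving out libraries.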

Additional observations from a re-analysis of the deposited data

Results flagged for a closer look

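The change against Col-0 differed between the mutants by limma for 3 of the 4 genes. The log2 difference, libraries labelled *sap18* minus *sr45*, was 0.57 for *PUMP4*, whose level was above Col-0 in both, 0.54 for *COX19-2* and 0.71 for *BCA6*, whose levels were below Col-0 in both (adjusted p = 0.023, 0.047 and 0.021). Of all 454 genes 58.4% differed in this contrast. Both libraries labelled *sap18* were above both *sr45* libraries for each of the 3 genes.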

How the results depend on the processing

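Each of the 4 genes stayed on its side of Col-0 in both mutants under every alternative tried for it. The tests between the mutants were less stable, and the cause was not tested. Leaving out 1 library at a time gave 146 to 265 differing genes, 0 to 3 of the 4 genes passing, and log2 differences of 0.42 to 0.72 for *PUMP4*, 0.35 to 0.73 for *COX19-2*, 0.58 to 0.85 for *BCA6* and 0.06 to 0.14 for *SAMC1*. It gave 90 to 149 genes meeting the fold criterion in the libraries labelled *sap18* and 189 to 258 in *sr45*. Where a genotype was left with 1 library, that library was assumed to vary like the others. With a pseudocount of 5 *COX19-2* no longer passed (0.31, adjusted p = 0.088 from limma), nor with a variance trend (0.54, adjusted p = 0.053). With each mutant centred on genes called in the other alone, *SAMC1* passed (0.42, adjusted p = 0.040 from limma). Neither this centring nor the next has a set of genes known to be unchanged, as the table was selected for change. Centred on genes called in neither, an alternative chosen after seeing the data, the differences were -0.088 for *PUMP4*, -0.56 for *SAMC1*, -0.12 for *COX19-2* and 0.055 for *BCA6*, 1 of the 4 genes passed, and 2 met the fold criterion in *sr45*, where *SAMC1* and *BCA6* no longer did. Of the genes called in *sr45*, 27.5% were higher, against 87.1% after this centring and 50% after the other, and in the libraries labelled *sap18* the shares were 46.7%, 75.5% and 89.7%. Without both libraries high in organelle transcripts, also chosen after seeing the data, 1 of the 4 genes passed, with 0.44 for *PUMP4* and 0.35 for *COX19-2* no longer passing, and 149 and 315 genes met the fold criterion in the libraries labelled *sap18* and *sr45*. By ratio of means 186 and 357 genes met it, with a threshold of 1.5 251 and 364, and with a threshold of 3 23 and 51, of which 2 of the 4 genes in *sr45*. With the replicate block 261 genes differed and the calls of the 4 genes did not change; same-numbered libraries shared only a number (correlations of deviations -0.11 to 0.08), so this is no paired design. The unknown depth and 2 libraries per genotype limit the precision of every value.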
